A study of Mus musculus with 2 samples.

Results

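The late cornified envelope (Lce) genes were taken as every row of the deposited expression table whose symbol starts with Lce, which gave 10 of 4183 rows. Of these, 8 belong to the Lce1 group (Lce1a1, Lce1a2, Lce1b, Lce1c, Lce1i, Lce1j, Lce1l and Lce1m) and 2 to the Lce3 group (Lce3b and Lce3f). The RefSeq annotation of GRCm38.p6 holds 21 mouse Lce genes, 14 of them Lce1, 6 Lce3 and 1 Lce6. The expression of the other 11, which were not listed, was not analysed here. RNA came from dorsal skin of C57BL/6 mice aged 18 to 20 months. One group was left untreated, and the other received red light at 8 J/cm² once a day for 28 days. GEO describes 1 sample per group. The table gives the authors' mean FPKM per group, that is fragments scaled to transcript length and sequencing depth, with no single library values. The sex and number of animals, the wavelength, the handling of the untreated mice and the interval between the last exposure and sampling are not stated.

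The cornified envelope is the protein shell that replaces the plasma membrane of a keratinocyte as it dies and becomes part of the skin surface. Transglutaminases crosslink early precursors such as involucrin and envoplakin, then loricrin and small proline-rich proteins, and the Lce proteins are added late, in the uppermost living layers of the epidermis. The Lce genes sit with those of loricrin, filaggrin-type proteins, small proline-rich proteins and S100 proteins in 1 gene cluster, the epidermal differentiation complex. In human skin, the LCE1 and LCE2 groups are known mainly from normal epidermis, while LCE3 genes are known for induction after barrier injury and in psoriasis.

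The sequences around the gene starts show what the members share at the promoter. Each line below gives 50 bases before and 20 bases after the RefSeq start (GRCm38.p6, chromosome 3), read 5′ to 3′ on the gene's own strand, for all 10 members. Capitals mark the run ATAAAA where it occurs between 40 and 15 bases before the start.
Lce1a1 (chr3:92648288-92648357, minus strand): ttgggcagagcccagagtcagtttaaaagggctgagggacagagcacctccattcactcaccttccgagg
Lce1b (chr3:92656907-92656976, minus strand): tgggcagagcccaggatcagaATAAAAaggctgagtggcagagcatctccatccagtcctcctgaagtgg
Lce1a2 (chr3:92670296-92670365, minus strand): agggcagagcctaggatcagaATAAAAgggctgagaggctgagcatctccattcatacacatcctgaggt
Lce1c (chr3:92679197-92679266, plus strand): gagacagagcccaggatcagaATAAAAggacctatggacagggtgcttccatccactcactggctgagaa
Lce1i (chr3:92778880-92778949, minus strand): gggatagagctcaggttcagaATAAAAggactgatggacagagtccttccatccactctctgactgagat
Lce1j (chr3:92790495-92790564, minus strand): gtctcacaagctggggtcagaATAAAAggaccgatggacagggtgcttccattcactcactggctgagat
Lce1l (chr3:92851267-92851336, minus strand): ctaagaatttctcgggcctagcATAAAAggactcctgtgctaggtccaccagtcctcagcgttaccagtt
Lce3b (chr3:92932929-92932998, plus strand): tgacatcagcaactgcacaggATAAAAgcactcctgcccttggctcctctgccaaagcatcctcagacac
Lce3f (chr3:92992167-92992236, plus strand): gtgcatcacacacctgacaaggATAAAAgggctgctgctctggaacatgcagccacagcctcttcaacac
Lce1m (chr3:93019042-93019111, minus strand): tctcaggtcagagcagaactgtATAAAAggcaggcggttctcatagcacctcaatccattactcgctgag

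In 9 of the 10 members the run began 28 or 29 bases before the start. It lay in that window of 17 of all 20 Lce promoters in the RefSeq table and of 1.72% of the table's 32851 promoters; the run was chosen after the sequences had been read. The exception among the members was Lce1a1, with the letters tttaaaagg at the same place. TATAAA, the textbook form of the TATA box, was searched on both strands of the whole window from 250 bases before to 50 bases after the start, where it overlaps the run in Lce1m. It was found in 1 of the 10 members, Lce1m, and in 13.6% of all promoters. TGANTCA, the usual core of AP-1 sites, was found in 0 of 10 members and in 7.81% of all promoters. CACCC was found in 4 of 10 members (Lce1b, Lce1c, Lce1j and Lce3f) against 57.5% of all promoters. CCAAT was found in both Lce3 members, in 0 of 8 Lce1 members and in 37.4% of all promoters. Those 2 were the only matches among all 20 Lce promoters, so the other Lce3 promoters lacked it and it does not mark that group. These are matches of letters in a short window and do not show binding.

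All 10 Lce genes had a lower mean after red light, where 61.3% of all rows of the table were lower. Because nearly every listed gene differed 2-fold or more, and the members were chosen from that table, this count and the values that follow are a description with no test. The values are means with no spread between animals, so no neighbouring levels can be said to differ beyond it. Added together, the 10 genes reached 1219.8 FPKM without treatment and 440.9 FPKM after red light, so that 36.1% of the untreated level was left. In bulk skin, fewer cells of a type and less RNA per cell cannot be told apart. The median log2 ratio of red light to untreated means was −1.35 (2.56-fold lower), beside −1.21 for all rows and −1.63 for all rows labelled lower by the authors.

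**Figure D1:**
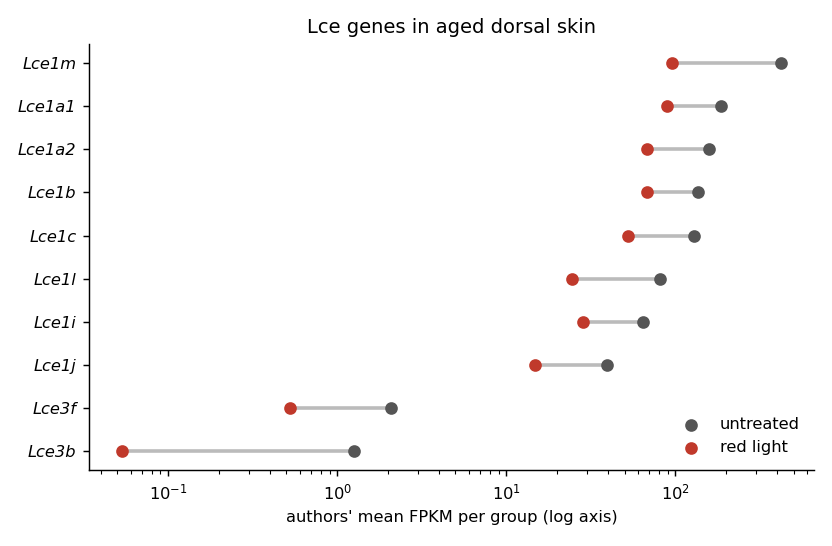
Authors' mean FPKM of the 10 Lce genes in untreated (grey) and red light (red) aged dorsal skin, on a log axis, ordered by the untreated level; each point is 1 group mean with no spread available. In all 10 rows the red light point lies to the left, and the 2 Lce3 genes sit below 3 FPKM, apart from the 8 Lce1 genes.

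Lce1m was the most abundant member and, among the Lce1 genes, the one with the largest fold difference. Its mean was 423.7 FPKM without treatment and 95.2 FPKM after red light, 4.45-fold lower. In untreated skin that was the 52nd highest level of all 4183 rows, and after red light the 240th. Lce1m made up 34.7% of the family's summed FPKM in untreated skin and 21.6% after red light. Without it the sum of the other 9 genes was 796.1 and 345.7 FPKM, 2.30-fold lower, against 2.77-fold with it.

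The remaining Lce1 genes, which encode closely related small envelope proteins, spanned 39.2 to 185.3 FPKM in untreated and 14.8 to 89.7 FPKM in red light skin. Lce1l stood at 81.5 and 24.4 FPKM, 3.34-fold lower. Lce1j, the least abundant Lce1 gene in both groups, stood at 39.2 and 14.8 FPKM, 2.65-fold lower. Both of these and Lce1m had the largest fold differences of the Lce1 group.

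Smaller differences were found for the 5 other Lce1 genes. Lce1c stood at 128.6 and 52.2 FPKM, 2.46-fold lower. Lce1a2 stood at 157.4 and 67.6 FPKM, 2.33-fold lower. Lce1i stood at 64.6 and 28.4 FPKM, 2.27-fold lower. All of these lay between the values of Lce1j and those of the pair nearest to 2-fold.

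That pair was Lce1a1 and Lce1b. Lce1a1, the second most abundant Lce gene in both groups, stood at 185.3 and 89.7 FPKM, 2.07-fold lower. Lce1b stood at 136.2 and 68.0 FPKM, 2.002-fold lower. Among rows labelled lower with means in that direction, the smallest difference was 2.0007-fold and only 3 rows had a smaller one than Lce1b. Lce1b and Lce1a1 are thus the members nearest to 2-fold. The listing rule is not stated, and in 4 rows of the table, 0 of them Lce, the label goes against the means. Across the 8 Lce1 genes the order of levels was nearly the same in both groups (Spearman's rho 0.95, a description over genes of the same libraries), with Lce1b and Lce1a2, and Lce1i and Lce1l, changing places. Across all 8 Lce1 genes the highest level was 6.45 times the lowest after red light, against 10.8 times in untreated skin. This narrowing rested on Lce1m alone. The other 7 spanned 39.2 to 185.3 FPKM in untreated and 14.8 to 89.7 FPKM in red light skin. Among those 7 the highest was a larger multiple of the lowest after red light than in untreated skin.

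The Lce3 genes were present at far lower levels. Lce3f stood at 2.08 FPKM in untreated and 0.523 FPKM in red light skin, 3.98-fold lower. Lce3b stood at 1.26 and 0.0533 FPKM, 23.6-fold lower. Together they made up 0.274% of the family's FPKM in untreated skin and 0.131% after red light, and the least abundant Lce1 gene exceeded Lce3f by 18.8-fold and 28.2-fold in the respective groups.

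Set side by side, the median log2 ratio was −1.26 over the 8 Lce1 genes (range −2.15 to −1.002) and −3.28 over the 2 Lce3 genes (−1.99 and −4.56). The 2 ranges overlapped, since Lce3f lay between Lce1l and Lce1m, so the wider gap rested on Lce3b. The difference of the medians, −2.02 on the log2 scale, depended on how near-zero values were handled. With 1 FPKM added to both means, Lce3b came to −1.10 and Lce3f to −1.02, while the Lce1 median was −1.25, and the difference of medians turned to 0.19. With 0.1 FPKM added it was −1.22. Read depth is unknown, so no counting error can be given for a mean as low as that of Lce3b after red light. At a log2 ratio of −2 or below stood Lce1m and Lce3b, 2 of the 10 members, against 18.9% of all rows.

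**Figure D2:**
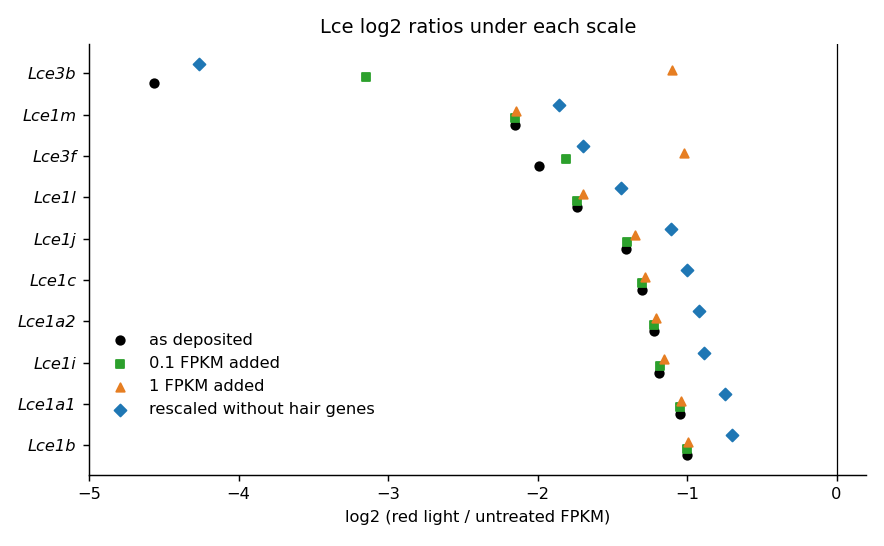
Log2 ratio of red light to untreated mean FPKM for each Lce gene as deposited (black), with 0.1 (green) or 1 FPKM (orange) added to both means, and rescaled to the listed genes outside the hair keratins (blue). The Lce1 points move little with an added value, whereas Lce3b moves from −4.56 to −1.10 and Lce3f from −1.99 to −1.02; rescaling moves all points alike, by 0.30.

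The members differ in how far their reads can be told apart. Each of the 10 transcripts in GENCODE M21 has 2 exons, with the whole coding sequence in 1 of them, and coding lengths run from 294 bases in Lce3b and Lce3f to 546 bases in Lce1m. Transcripts of the 6 Lce1 genes other than Lce1l and Lce1m were 73.9 to 88.2% identical to one another. Lce1l was 68.8 to 72.2% identical to those 6, and Lce1m 48.9 to 56.3% to the other 7. Between Lce1 and Lce3 the range was 47.0 to 58.3%, with Lce1m at the low end (47.0% to Lce3b and 50.4% to Lce3f). The other 7 Lce1 genes were 55.8 to 58.3% identical to the Lce3 genes. Lce1m was thus mostly further from its own group than those 7 were from Lce3, with a small overlap of the ranges.

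Runs of identical coding sequence show the extent of this sharing, and the longest within each group is given here on the gene's own strand. The Lce1 run of 107 bases is common to Lce1a1 (GRCm38, chr3:92646747-92646853, minus strand) and Lce1j (chr3:92789063-92789169, minus strand).
Lce1a1 and Lce1j: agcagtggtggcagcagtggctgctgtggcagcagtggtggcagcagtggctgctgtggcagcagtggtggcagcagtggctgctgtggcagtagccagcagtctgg
The Lce3 run of 104 bases is common to Lce3b (chr3:92933756-92933859, plus strand) and Lce3f (chr3:92993030-92993133, plus strand).
Lce3b and Lce3f: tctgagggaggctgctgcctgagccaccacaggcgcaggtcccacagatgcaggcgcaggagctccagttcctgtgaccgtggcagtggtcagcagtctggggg
Lce1b and Lce1c share another run of 107 bases. Of all 50-base windows of a transcript, 15.02 to 27.1% also occurred in another gene's transcript for the 6 closely related Lce1 genes, 9.66% for Lce1l and 0% for Lce1m. For Lce3f it was 48.04% and for Lce3b 12.1%, in each case shared with other Lce3 genes. At 100 bases the share was at most 2.65% for the Lce1 genes, 1.08% for Lce3b and 42.97% for Lce3f. The read length and the treatment of reads that match several genes are not stated, and single values of the closely related genes are therefore uncertain. Lce1m had no shared window of either length.

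**Figure D3:**
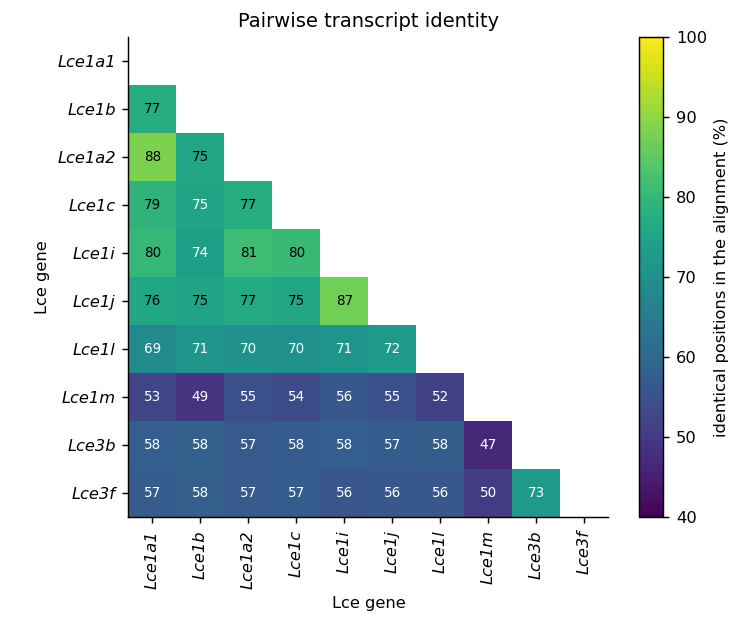
Percent identity of the longest GENCODE transcript of each pair of Lce genes in a global alignment, with gaps counted as differences; Lce1 genes come first, in gene order, then Lce3. The 6 Lce1 genes at the top form a block of 74 to 88%, Lce1m stands apart at 49 to 56%, and the Lce3 pair is at 73%.

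Fold differences of the 8 listed Lce1 genes were larger toward one end of the gene cluster. The other 6 annotated Lce1 genes lie within this order and were not listed. Since nearly every listed gene differed 2-fold or more, smaller differences may be missing from the trend. In the order in which the Lce1 genes lie on chromosome 3, the log2 ratios were −1.05 for Lce1a1, −1.002 for Lce1b, −1.22 for Lce1a2, −1.30 for Lce1c, −1.18 for Lce1i, −1.41 for Lce1j, −1.74 for Lce1l and −2.15 for Lce1m. The Lce3 genes lie between Lce1l and Lce1m and had ratios of −4.56 and −1.99. Spearman's rho between gene order and log2 ratio was −0.90 over the 8 Lce1 genes and −0.86 over 7 without Lce1m. Over all 10 members it was −0.92, but −0.42 with 1 FPKM added to both means, which left the value for the 8 Lce1 genes at −0.90; the all-member value therefore rests on the low Lce3 means. This is a description of genes that share libraries and, in part, sequence: Lce1l and Lce1m, with the fewest shared windows, lie last among the Lce1 genes, and the part of sequence sharing in the trend was not tested. The uncharacterised gene 2310050C09Rik, between Lce1l and the Lce3 genes, stood at 143.2 and 37.8 FPKM, with a ratio of −1.92. From Lce6a to Lce1m, 11 of 24 annotated protein-coding genes were listed, 10 of them the Lce members. All 11 were lower, where 61.3% of all rows were. The unlisted genes of the stretch, Lce6a among them, say nothing about change.

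On both sides of this stretch the complex held genes that were higher. Of the 70 protein-coding genes from S100a1 to S100a10, 30 were listed, and outside the Lce family 14 of 20 were higher, where 38.7% of all rows were. The other 6 were lower. Hair genes such as S100a3 are among the 14, so these are not a set of epidermal envelope genes alone. Involucrin (Ivl), an early envelope precursor and the nearest listed neighbour before the Lce genes, stood at 23.7 and 73.25 FPKM, 3.10-fold higher. Cornulin (Crnn), on the other side, stood at 0.577 and 294.7 FPKM. It was followed by 2 lower genes that encode filaggrin-type proteins, Flg2 at 81.7 and 17.3 FPKM and Hrnr at 25.0 and 6.33 FPKM.

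**Figure D4:**
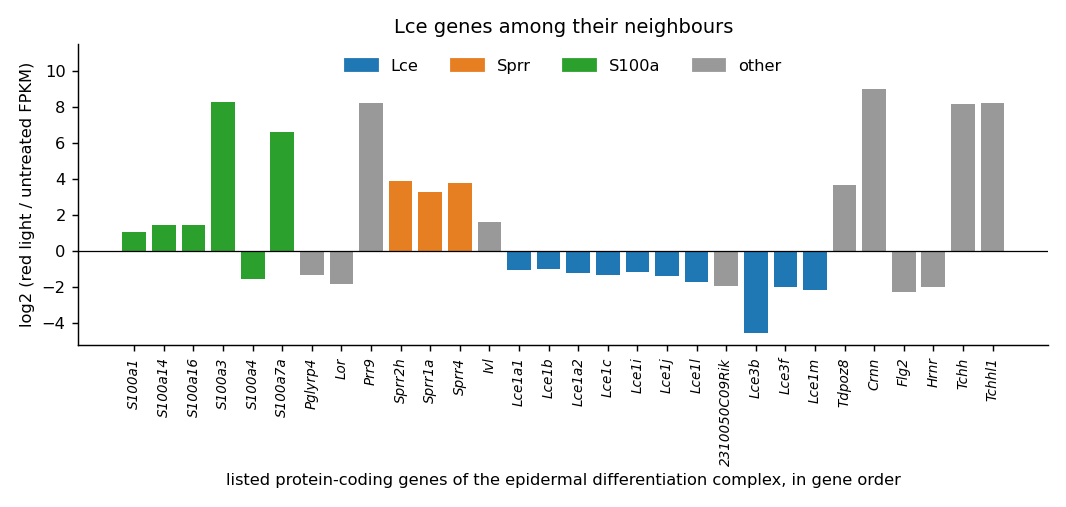
Log2 ratio of red light to untreated mean FPKM for the 30 listed protein-coding genes of the epidermal differentiation complex, evenly spaced in their order on chromosome 3 and coloured by family. Between Ivl at 1.63 and Tdpoz8 at 3.67, the listed genes are the Lce genes (blue) and 2310050C09Rik, all lower, with ratios from −1.002 to −4.56. The ratio of Tdpoz8 rests on very low means, 0.037 FPKM in untreated and 0.467 FPKM in red light skin. They are 11 of 24 annotated genes from Lce6a to Lce1m.

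Other envelope precursors lay on both sides, near the shares in the whole table. Of 24 symbols in the list, 13 were in the table, with a median log2 ratio of −1.04, beside −1.21 for all rows. Of these 13, 6 were higher and 7 lower, beside 38.7% and 61.3% of all rows. With so few genes the count is not read as a difference from the table. The largest differences were those of Crnn and the trichohyalin-like Tchhl1, which went from 0.577 to 171.3 FPKM. The smallest were those of dermokine (Dmkn), at 1304 and 635.0 FPKM, and envoplakin (Evpl), at 26.1 and 62.5 FPKM. Loricrin (Lor), the main envelope protein of mouse epidermis, stood at 678.2 and 188.5 FPKM, a ratio of −1.85, and the secreted differentiation products Krtdap and Sbsn at −1.68 and −1.29.

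The small proline-rich proteins, which crosslink into the envelope beside loricrin, were all higher where listed. Only 3 of the 14 annotated Sprr genes were listed, and 38.7% of all rows were higher. The unlisted Sprr genes say nothing about change. Sprr1a stood at 215.1 and 2092 FPKM, Sprr2h at 3.53 and 51.96 FPKM and Sprr4 at 2.74 and 37.6 FPKM. The 3 log2 ratios, from 3.28 to 3.88, lay opposite in sign to those of every Lce member. In untreated skin the level of Sprr1a was near that of Lce1a1 per length, and after red light it exceeded the summed FPKM of all 10 Lce genes.

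Calcium-binding S100 proteins of the same complex were higher in 5 of 6 listed cases out of 15 annotated, where 38.7% of all rows were higher. S100a3, a protein of the hair cuticle, went from 7.84 to 2471 FPKM and S100a7a from 1.03 to 102.8 FPKM. S100a14, S100a16 and S100a1 were 2.72-fold, 2.77-fold and 2.11-fold higher. S100a4, which mesenchymal and immune cells express, was the exception at 271.4 and 93.7 FPKM.

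Genes for crosslinking or processing the envelope, enzymes and protease inhibitors together, were mostly higher, with 10 of 14 listed genes from a list of 27. Their median log2 ratio was 1.497, where 38.7% of all rows were higher and the median of all rows was −1.21. In bulk skin, epidermis and hair follicle cannot be told apart as the source of these values. Padi3 and Padi1, which convert arginine to citrulline, had the largest differences, from 0.963 to 235.9 and from 0.31 to 63.6 FPKM. Transglutaminase 1 (Tgm1), the crosslinking enzyme of the epidermal envelope, had the smallest, at 30.4 and 63.2 FPKM. Spink5, an inhibitor of the proteases that shed surface cells, had the next smallest and was lower, at 57.3 and 25.6 FPKM. Of the other listed protease inhibitors, Spink12 was higher, while Serpinb12 and Serpinb7 were lower. The count and median are therefore not those of enzymes alone. Genes for the lipids bound to the envelope were lower in 5 of 7 listed cases out of 27, with a median of −1.63; 61.3% of all rows were lower, with a median of −1.21, so the count is near the share in the whole table.

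**Figure D5:**
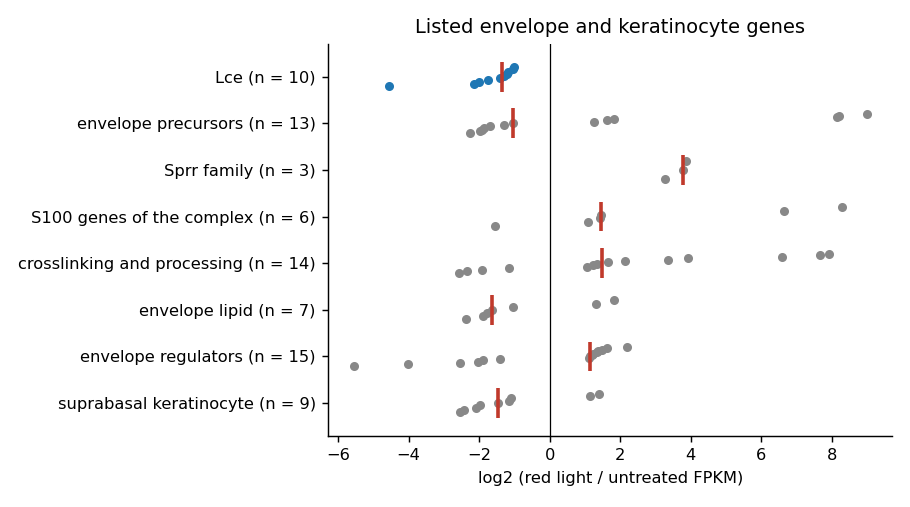
Log2 ratio of red light to untreated mean FPKM for each listed gene of 7 lists and of the Lce family (blue), with the median as a red bar and points spread vertically only for visibility. The Lce genes lie wholly below 0 (median −1.35) and the Sprr genes wholly above it (median 3.78), while the other lists hold genes on both sides.

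Transcription factors and signals known to act in terminal differentiation were higher in 9 of 15 listed cases out of 33, with a median of 1.15. Of all rows, 38.7% were higher, with a median of −1.21. With so few genes the count is not read as a difference from the table. The largest differences were in the AP-1 genes Fosb, from 156.1 to 3.34 FPKM, and Fos, from 259.1 to 16.1 FPKM, which also respond within minutes to handling. Without these 2 genes, a choice made after their values were seen, the median was 1.19. The smallest differences were those of Barx2 and Grhl1, the latter a factor of epidermal differentiation, at 2.18-fold and 2.22-fold higher. Klf4, a factor needed for the mouse epidermal barrier, was 2.66-fold lower, a log2 ratio of −1.41 beside the Lce median of −1.35. It is among the 6 lower genes of this list and was picked after its value was seen.

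Markers of the suprabasal epidermis, the layers that precede Lce expression, were lower in 7 of 9 listed cases out of 15, with a median of −1.46, against 61.3% and −1.21 for all rows; with so few genes the count is not read as a difference from the table. Together they summed to 3836 FPKM without treatment and 1307 FPKM after red light, 2.94-fold lower, beside 2.77-fold for the Lce sum. Krt10, the keratin of these layers, stood at 1600 and 379.9 FPKM and its partner Krt1 at 471.0 and 171.6 FPKM. Krt77 and Calm5 had the largest differences, 5.40-fold and 5.78-fold lower, and Calm4 and Calml3 the smallest, 2.14-fold lower and 2.203-fold higher.

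Genes of other cell types moved in the same table, and their part in the Lce values was not tested. Hair shaft and inner root sheath keratins and keratin-associated proteins were higher in 75 of 75 listed cases, against 38.7% of all rows, with 1 at 0 in untreated skin. They made up 0.162% of the table's summed FPKM in untreated and 38.3% in red light skin, and on a relative scale such a gain lowers the values of all other genes. Rescaled to the listed genes outside this group, every row shifted by 0.30 on the log2 scale, and the Lce median was −1.05 beside −0.91 for all rows. A shift of that size, the same for all rows, cannot change the direction of a gene that differs 2-fold or the place of the Lce genes among the others. The rescaling is thus no test of either. It rests on listed rows only, and the effect of the hair gain over whole libraries was not tested. On that scale Lce1b was at −0.70 and Lce1m at −1.85. Beside the counts that follow, 61.3% of all rows were lower. Sets of so few genes are not read as a difference from that share. Skeletal muscle genes were lower in 12 of 12 listed cases, with summed FPKM of 15089 and 2658. Sebocyte genes were lower in 5 of 5 out of 12 (406.2 and 97.6 FPKM), basal keratinocyte genes in 2 of 2 out of 8 (66.9 and 28.0 FPKM) and immune genes in 7 of 7 out of 8 (956.0 and 204.7 FPKM). By their means, dermal fibroblast genes were lower in 4 of 7 out of 8 (1667 and 1491 FPKM), and by the authors' label in 5, since Col3a1 is labelled lower with means of 137.1 and 198.0 FPKM. By their means, stress keratinocyte genes were lower in 1 of 3 out of 10 (765.0 and 1947 FPKM).

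Among genes of at least 100 FPKM in untreated skin, the 5 whose log2 ratio was nearest to the Lce median were Vim, Elovl5, Cyp2f2, Timp2 and Tmem109. They were 2.55-fold to 2.57-fold lower, within 0.0071 of the Lce median on the log2 scale. Likeness here rests on only 2 group means per gene, and none of the 5 is in the lists of envelope genes.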

How the data were processed

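The deposited table held the authors' mean FPKM per group and a label of direction, per the file headers. Tools named in the submitters' processing notes are DESeq2 1.40.2, R 4.3.1, RSEM and Bowtie2 2.2.8, with no role given for any. Per the labels' protocols, oligo(dT) beads enriched mRNA before library preparation with an NEBNext Ultra kit. The genome build, the number of libraries behind each mean and the rule by which genes were listed are not given in the sources used here. Depth is unknown, so no intervals or detection limits are given.

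Ratios of the deposited means were computed without a pseudocount. Direction was taken from the means. With 1 value per group no test was possible. The members and gene lists were chosen with earlier results of these data known. Genes named in full are all Lce rows and all listed Sprr and S100a genes. In each longer list of envelope precursors, crosslinking and processing genes, regulators and suprabasal markers they are the 2 largest and 2 smallest differences. The 5 nearest genes by log2 ratio are also named by rule. Lor, Krtdap, Sbsn, Krt1, Krt10, Klf4, Ivl, Flg2, Hrnr, Tdpoz8, 2310050C09Rik, Spink12, Serpinb12 and Serpinb7 were picked from the lists or from gene order after their values were seen. Alternatives were pseudocounts of 1 and 0.1, a minimum of 1 FPKM, a log2 ratio of at least 2, summed FPKM, and rescaling without hair genes. Promoters came from RefSeq (GRCm38.p6; all 10 members matched) and transcripts from GENCODE M21 (GRCm38), aligned globally with a match at 1, a mismatch at −1, and gaps at −2 to open and −0.5 to extend. Ratios and motif searches were tested on simulated data. Python 3.11.15, numpy 2.4.6, pandas 2.3.3, scipy 1.17.1, Biopython 1.88 and matplotlib 3.10.9 were used.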

Additional observations from a re-analysis of the deposited data

How the results depend on the processing

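Ratios that shifted by more than 1.5-fold count as moved. Of the 10 Lce ratios, adding 1 FPKM moved 2, Lce3b and Lce3f, and adding 0.1 FPKM moved 1, Lce3b, to −3.15. A minimum of 1 FPKM and rescaling without hair genes test neither direction nor size here: every member exceeds 1 FPKM in untreated skin, and rescaling shifts all rows alike by 0.30. An added value cannot change the sign of a single gene either. The Lce3 median log2 ratio of −3.28 became −1.06 with 1 FPKM added, −2.48 with 0.1 added and −2.54 from summed FPKM. The difference between Lce3 and Lce1 medians, −2.02, was −1.22 with 0.1 FPKM added and reversed to 0.19 with 1 added. A log2 ratio of at least 2 left 2 of 10 Lce genes, fewer by construction. The median of all rows was −0.68 with 1 FPKM added. With a minimum of 1 FPKM, 13 genes of the complex outside the Lce family were higher in place of 14, since Tdpoz8 dropped out. Leaving out replicates needs single library values, which were not used here. No paired analysis was possible because only means per group were used.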
